A study of Mus musculus with 6 samples.

Results

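The regulators of G protein signalling described here are 9 genes, Rgs1, Rgs2, Rgs3, Rgs10, Rgs12, Rgs14, Rgs16, Rgs18 and Rgs19, chosen by name from the 35275 genes of the deposited FPKM table (FPKM are read counts scaled by gene length and library total). All 9 also had read counts, and 8 passed the filter on low counts; Rgs16 did not. Each library was made from RNA of about 2000 haematopoietic stem cells (HSCs), the cells that renew all blood lineages, sorted from the bone marrow of adult mice. There were 3 libraries of mutant cells, from mice whose genotype is labelled Ramp-/-, and 3 of wild-type cells, from mice labelled Ramp1+/+. The extent of the Ramp1 deletion is not in the labels. Nor are the animals behind each library, and p-values therefore cover only the spread among these 6 libraries. The series title names nociceptive nerves and HSC mobilization, and the question the comparison addresses is which transcripts differ in HSCs without intact Ramp1.

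G protein-coupled receptors act by loading GTP onto a G alpha subunit, and the signal ends when the subunit hydrolyses that GTP. RGS proteins bind the GTP-bound alpha subunit through their RGS domain and speed this hydrolysis, which shortens signalling; most of them act on the Gi and Gq classes. In blood cells they are best known for limiting responses to chemokines and other migration signals. Ramp1 forms, with Calcrl, the receptor for the neuropeptide CGRP, which couples mainly to Gs.

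The libraries held between 22796771 and 26734561 counted reads. Ramp1 itself had 2.51 ± 1.1 FPKM in mutant HSCs and 90.2 ± 1.7 FPKM in wild-type HSCs (SD, n = 3 each; log2 fold change -5.17, edgeR adjusted p = 0.00146). HSC markers were present in every library, with all 13 listed genes detected and a summed level of 1429 to 1782 FPKM in mutant and 1418 to 1680 FPKM in wild-type HSCs. Replicate 1 of both genotypes stood apart: it alone held Y-linked reads, 6137 in the mutant and 6527 in the wild-type library, against at most 2 in any other. Xist, which female cells express, had 5 reads in mutant replicate 1 and 10 in wild-type replicate 1. The other libraries held 1456 to 3540 reads of it. By both measures replicate 1 reads as male and replicates 2 and 3 as female, in each genotype. Neutrophil markers, of which 12 of 12 were detected, also varied widely, with a summed level of 254 to 1180 FPKM in mutant and 94.2 to 848 FPKM in wild-type libraries. Replicate 1 had the lowest sum of each genotype. S100a8 and S100a9 held much of this sum, with 292 and 261 FPKM on average in mutant and 133 and 129 FPKM in wild-type HSCs. Not every marker followed. Prtn3 had 71.6, 34.85 and 43.95 FPKM in mutant and 58.9, 70.2 and 27.5 FPKM in wild-type replicates 1 to 3. Mmp8 was lowest in replicate 2 of the mutant and Elane in replicate 3 of the wild type.

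No RGS gene passed the test between mutant and wild-type HSCs. Of the 8 tested, 0 passed an adjusted p of 0.05 in edgeR's quasi-likelihood test (all adjusted p = 0.999), where 0.0208% of all 14443 genes tested did. None of the 8 had an unadjusted p under 0.05 (0.204 to 0.757; background 3.99%), and DESeq2 also called 0 of the 9 (background 0.265%). In none of the 9 did the 3 mutant FPKM values lie entirely above or below the 3 wild-type values, which was the case for 10.3% of genes tested. Their median log2 fold change was 0.09, against 0.00030 over all genes tested, with 5 positive and 3 negative values. An exact two-sided permutation test on the FPKM of single genes gave p between 0.3 and 1.0, where 0.1 is the smallest this design allows. In the authors' deposited table each of the 9 has an adjusted p of 0.99977, and 0.231% of its genes with such a value lie under 0.05.

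What the data do give is the RGS make-up of these cells in FPKM, with nearly the same order of levels in both genotypes. Rgs18 and Rgs19 together made 78.1% to 81.2% of the summed FPKM of the 9 genes in every library. Rgs18 alone held 49.1% to 53.3%. Such shares and the order of genes rest on the gene length used, 5843 bases for Rgs1 and 1511 for Rgs19. Read counts of Rgs1 and Rgs19 lay closer, at 10432 and 12391 over the mutant and 8134 and 10890 over the wild-type libraries. The mean level of Rgs18 lay above 98.4% of the genes detected and that of Rgs19 above 96.4%, whereas Rgs16 lay above 23.8%. In mutant HSCs the order of mean FPKM was Rgs18, Rgs19, Rgs1, Rgs2, Rgs14, Rgs12, Rgs3, Rgs10 and Rgs16. In wild-type HSCs it was the same except that Rgs2 stood before Rgs1. Neighbours in this order had ranges that did not overlap in either genotype, apart from Rgs1 with Rgs2 and the lower of these with Rgs14. The summed level of the 9 was 334, 419 and 367 FPKM in the mutant libraries and 307, 363 and 362 FPKM in the wild-type libraries. In bulk samples like these, fewer cells of a type and less RNA per cell cannot be told apart.

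**Figure D1:**
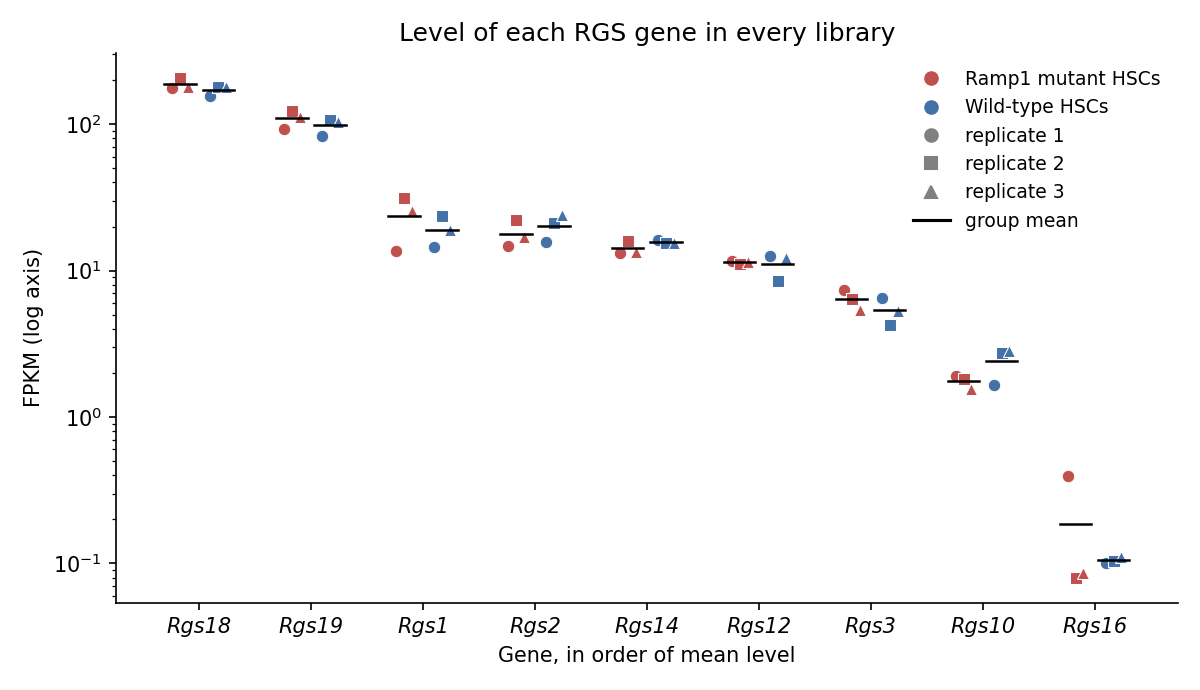
FPKM (log axis) of the 9 RGS genes in each library, mutant points left of wild-type points, with a symbol for each replicate and a bar at the group mean. Rgs18 and Rgs19 lie far above the rest, Rgs16 lies near 0.1 FPKM except in mutant replicate 1, and the groups overlap for every gene.

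Rgs18, Rgs1, Rgs2, Rgs3 and Rgs16 belong to the small R4 class, most of which consist of little more than the RGS domain. Rgs18, which acts on Gi and Gq and is known from megakaryocytes, platelets and blood progenitors, had 178, 207 and 180.1 FPKM in mutant replicates 1, 2 and 3 and 156, 180.4 and 179 FPKM in wild-type replicates 1, 2 and 3. Mutant replicate 2 was the highest and wild-type replicate 1 the lowest, and the remaining 4 libraries lay between 178 and 180.4 FPKM. The log2 fold change was 0.13 (SE 0.11), and its 95% interval, -0.12 to 0.38, corresponds to a fold of 0.923 to 1.30. This is the narrowest interval among the 8 tested genes, with 8231 to 11235 reads per mutant library and 8047 to 9119 per wild-type library. Markers of megakaryocytes and platelets, with 11 of 11 detected, had a summed level of 247 to 354 FPKM in mutant and 290 to 367 FPKM in wild-type libraries.

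Rgs1, known for damping chemokine responses of lymphocytes, varied most between libraries among the 8 tested, over a range of 1.24 in log2 CPM (counts scaled to the library total). It had 13.7, 31.3 and 25.7 FPKM in mutant replicates 1 to 3 and 14.5, 23.5 and 18.8 FPKM in wild-type replicates 1 to 3. Replicate 1 was the lowest library of each genotype, and both were at nearly the same level. The log2 fold change was 0.32 (SE 0.31; interval -0.40 to 1.03), a fold of 0.760 to 2.05. It was 0.60 without mutant replicate 1 (edgeR unadjusted p = 0.0267, adjusted p = 0.994) and 0.06 without mutant replicate 2. The former fit still holds the low wild-type replicate 1. Without both replicate 1 libraries the log2 fold change of Rgs1 was 0.44 (SE 0.18). B cell markers had a summed level of 38.8 to 50.3 FPKM in mutant and 41.1 to 43.3 FPKM in wild-type libraries; 8 of 9 were detected, with Pax5 at 0 in every library. Most of this sum was Cd79b, with 39.2 ± 7.65 FPKM in mutant and 38.2 ± 3.41 FPKM in wild-type HSCs. All 6 tested B cell markers had higher values in mutant HSCs, and 0 passed. Their median log2 fold change was 0.93, with 0.03 for Cd79b. Their median log2 CPM lay at 0.06, 0.96 and 0.72 around the 6-library mean in mutant replicates 1 to 3. In wild-type replicates 1 to 3 it lay at -1.47, 0.43 and -0.34. Apart from Cd79b, the tested markers averaged at most 1.745 FPKM. Ebf1 and Igll1, detected but not tested, had lower means in mutant HSCs, at 0.026 and 0 FPKM against 0.095 and 0.059 FPKM. T and NK cell markers had 35.1 to 56.8 FPKM in mutant and 44.8 to 71.8 FPKM in wild-type libraries, with 8 of 9 detected and Cd8a at 0. Most of this sum was Nkg7, with 39.3 ± 9.6 FPKM in mutant and 53.1 ± 15.0 FPKM in wild-type HSCs. The T cell genes Cd3e, Cd3d, Cd3g, Trac and Trbc1 reached at most 0.95 FPKM in any library, and only 3 of the 9 markers were tested. The part of such cells in the level of Rgs1 was not tested.

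Rgs2, which acts mainly on Gq and is induced quickly by many stimuli, had 14.8, 22.1 and 16.97 FPKM in mutant and 15.6, 21.0 and 24.0 FPKM in wild-type replicates 1 to 3. Replicate 1 was again the lowest of each genotype, and the values of the genotypes interleave. The log2 fold change was -0.17 (SE 0.21; interval -0.65 to 0.31). Rgs3, a gene with several long and short isoforms that counting per gene does not separate, had 7.34, 6.39 and 5.42 FPKM in mutant and 6.51, 4.27 and 5.26 FPKM in wild-type replicates 1 to 3. Here replicate 1 was the highest library of each genotype. Its log2 fold change of 0.26 (SE 0.19; interval -0.17 to 0.69) had the smallest unadjusted p of the 8, at 0.204.

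Rgs16, a regulator of Gi and Gq signalling that activated blood cells induce, was close to absent. It had 21, 5 and 5 reads in mutant replicates 1 to 3 and 6 in each wild-type library. The 95% counting interval (exact Poisson, counting error only) was 13.0 to 32.1 reads for the 21 in mutant replicate 1 and 1.62 to 11.7 for the 5 in mutant replicates 2 and 3, against 2.20 to 13.1 for each 6 in wild type. With no filter on low counts its log2 fold change was 0.80 (SE 0.91; edgeR adjusted p = 1), which rests on mutant replicate 1. The FPKM ratio of mutant over wild type was -0.36 on the log2 scale over replicates 2 and 3. An antisense gene, listed with 0.788 FPKM on average, shares 236 of the 2339 exonic bases of Rgs16 in GENCODE M21. The sources used here do not say whether counting used strand, so part of these few reads may belong to either gene.

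Rgs19, also called GAIP, is of the Rz class and acts on Gi and Gz. It had 93.2, 123 and 112.0 FPKM in mutant and 83.2, 107 and 104.0 FPKM in wild-type replicates 1 to 3. Replicate 1 was the lowest of each genotype, and mutant replicate 1 lay below wild-type replicates 2 and 3. The log2 fold change was 0.16 (SE 0.15; interval -0.19 to 0.51), a fold of 0.879 to 1.42.

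Rgs12, Rgs14 and Rgs10 make up the R12 class. Rgs12 and Rgs14 also carry Ras-binding domains and a GoLoco motif that holds Gi alpha in its GDP-bound form. Rgs12 had 11.7, 11.1 and 11.4 FPKM in mutant and 12.6, 8.45 and 12.2 FPKM in wild-type replicates 1 to 3. Only wild-type replicate 2 stood away from the others. Its log2 fold change was 0.05 (SE 0.15; interval -0.30 to 0.40), and -0.10 without wild-type replicate 2. An antisense gene without a deposited FPKM value shares 467 of the 8487 exonic bases of Rgs12 in GENCODE M21. As for Rgs16, whether counting used strand is not given. Rgs14 had 13.1, 15.9 and 13.5 FPKM in mutant and 16.1, 15.5 and 15.4 FPKM in wild-type replicates 1 to 3. Mutant replicate 2 lay inside the wild-type range and the other two mutant libraries below it, with a log2 fold change of -0.14 (SE 0.13; interval -0.44 to 0.16).

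Rgs10, a short protein known from microglia and platelets, was low. It had 1.89, 1.83 and 1.56 FPKM in mutant and 1.66, 2.74 and 2.82 FPKM in wild-type replicates 1 to 3, from 34 to 43 reads per mutant library and 37 to 60 per wild-type library. Wild-type replicates 2 and 3 lay above all other libraries, and wild-type replicate 1 lay within the mutant range. Its log2 fold change of -0.45 (SE 0.41; interval -1.39 to 0.49) was the most negative of the 8 and had the widest interval, which runs from a fold of 0.381 to 1.41.

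**Figure D2:**
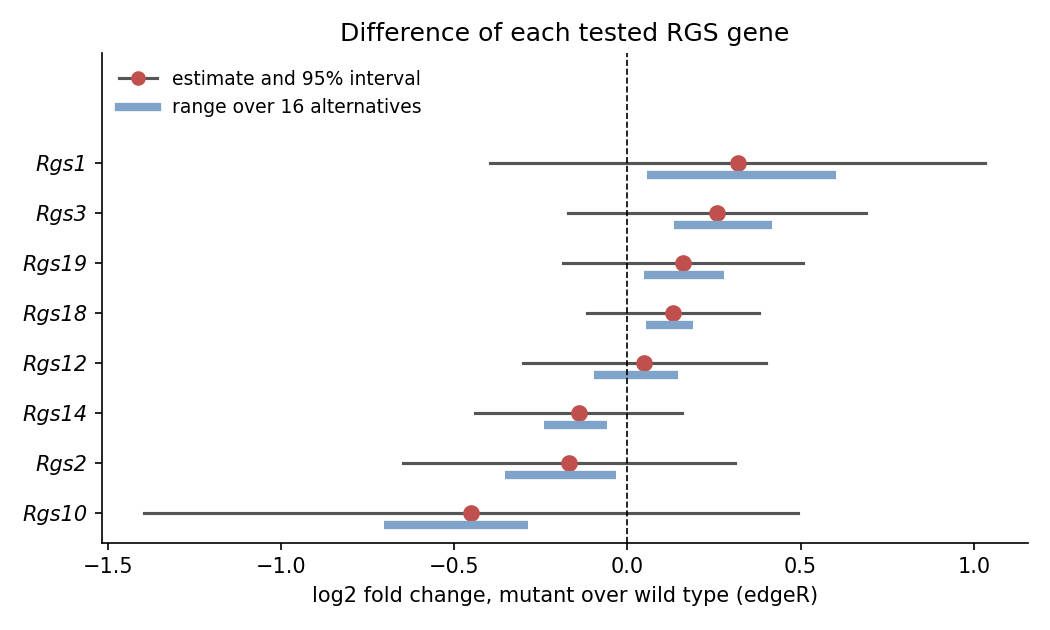
Log2 fold change of mutant over wild-type HSCs for the 8 tested RGS genes, with the 95% interval (thin line) and the range over 16 alternative settings (thick bar). Every interval crosses 0, from Rgs1 at 0.32 to Rgs10 at -0.45, and Rgs18 has the narrowest.

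Replicate 1 differed from replicates 2 and 3 in the same direction in both genotypes for 6 of the 8 tested RGS genes. Rgs1, Rgs2, Rgs18 and Rgs19 were lowest in replicate 1 of both genotypes, which makes 4 of 8 tested RGS genes, where 11.4% of all genes tested had that order. Rgs3 and Rgs12 were highest in replicate 1 of both, 2 of 8, where 16.2% of genes were. With a second term in the edgeR fit for libraries that hold Y-linked reads, the libraries with such reads had log2 differences of -0.83 (SE 0.18) for Rgs1, -0.49 (SE 0.14) for Rgs2, -0.37 (SE 0.09) for Rgs19 and -0.19 (SE 0.09) for Rgs18 against those without. The sign was the opposite for Rgs3, at 0.35 (SE 0.16). None of the 8 passed (lowest adjusted p = 0.485, for Rgs1), where 0.00692% of all genes did; 3 of 8, Rgs1, Rgs2 and Rgs19, had an unadjusted p under 0.05 (0.00273, 0.0113 and 0.00615; background 7.05%). This term sets replicate 1 apart from replicates 2 and 3. Sex, as read from Y-linked and Xist reads, and anything else particular to replicate 1 therefore cannot be told apart.

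Set apart by Y-linked reads, the genotype difference in log2 FPKM was -0.08 for Rgs1 between the replicate 1 libraries and 0.43 between the means of replicates 2 and 3. For Rgs10 it was 0.19 in replicate 1 and -0.72 in replicates 2 and 3, the opposite direction. Rgs12 also turned, with -0.11 and 0.15. Rgs18 (0.19 and 0.10), Rgs19 (0.16 and 0.15), Rgs3 (0.17 and 0.31), Rgs2 (-0.08 and -0.22) and Rgs14 (-0.30 and -0.07) kept their sign in these means. Taken by replicate number, replicates 2 and 3 differed in sign for Rgs2 (0.07 and -0.50), Rgs14 (0.04 and -0.19) and Rgs12 (0.39 and -0.09). There is 1 replicate 1 library per genotype, so these values have no error of their own. Without both replicate 1 libraries, edgeR called 0 RGS genes.

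**Figure D3:**
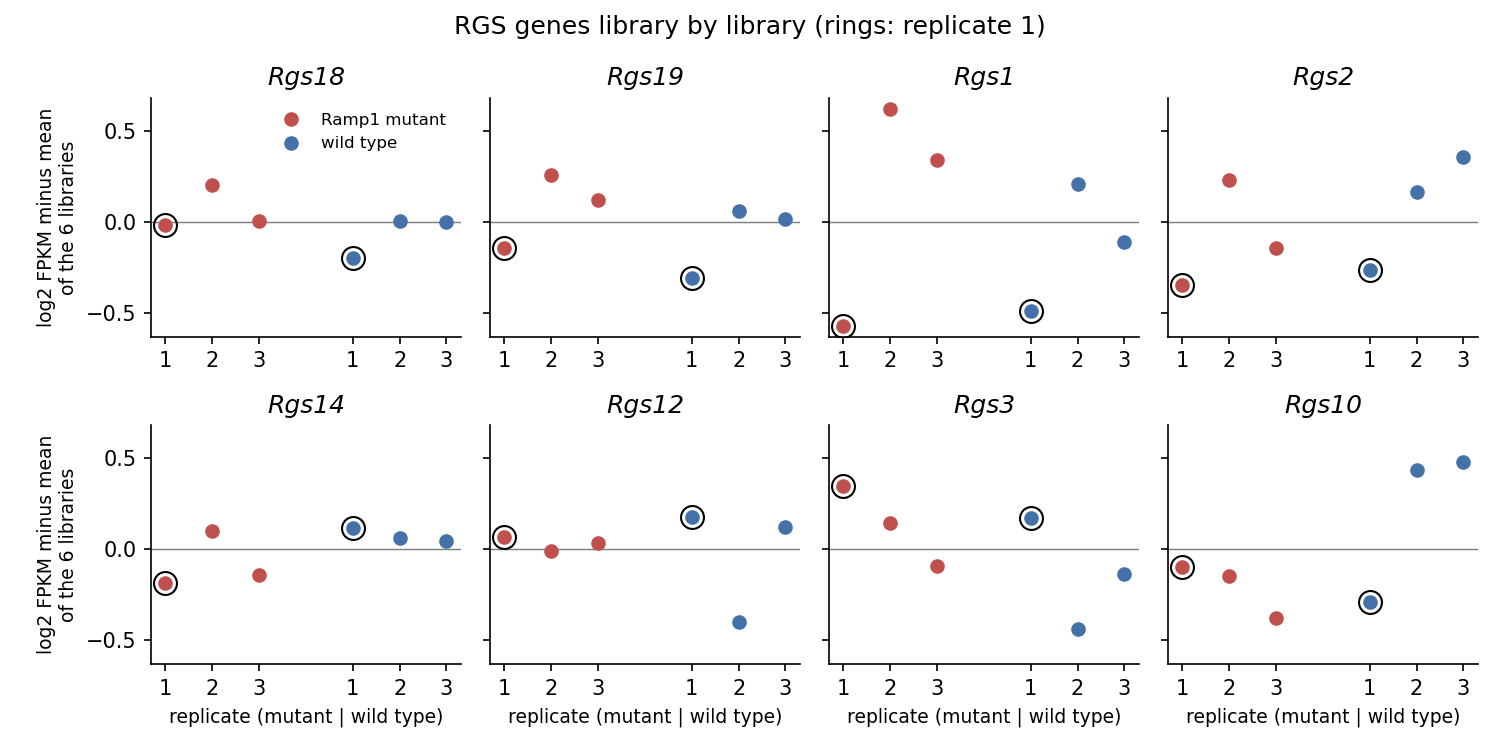
Log2 FPKM of each tested RGS gene in each library, less its mean over the 6 libraries, with mutant libraries left and wild-type libraries right and rings around replicate 1. The ringed points are the lowest of their genotype for Rgs18, Rgs19, Rgs1 and Rgs2 and the highest for Rgs12 and Rgs3.

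Immediate early genes, the fast response genes among which Rgs1 and Rgs2 are often counted, were also lowest in replicate 1 of each genotype. Their 22 tested genes lay at a median log2 CPM of -0.40, 0.35 and 0.54 around their 6-library mean in mutant replicates 1 to 3. In wild-type replicates 1 to 3 this median was -0.42, -0.09 and 0.03. Outside replicate 1 the order differed. The median was highest in mutant replicate 3, Rgs1 in mutant replicate 2 and Rgs2 in wild-type replicate 3. Neutrophil markers lay at -0.89, 1.27 and 1.82 in mutant and at -3.15, 0.10 and 1.36 in wild-type replicates 1 to 3. Of the 22 immediate early genes 0 passed, 3 had an unadjusted p under 0.05, and 17 had higher values in the mutant group; their median log2 fold change was 0.25. Over all genes tested, 3.99% had such a p and 7230 of 14443 had higher values. Fos had 26.9 ± 22.5 FPKM in mutant and 5.58 ± 3.52 FPKM in wild-type HSCs. The part of these markers' variation in the levels of Rgs1, Rgs2, Rgs18 and Rgs19 was not tested.

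The genes whose log2 CPM followed Rgs1 most closely over the 6 libraries, among 8898 with at least 5 FPKM, were Rab6a, a GTPase of Golgi transport (Pearson r = 0.999), the kinase gene Cdk11b (0.989), Naca, which binds nascent chains at the ribosome (0.988), the transcription factor gene Cebpb (0.987) and Qtrt1, a tRNA-modifying enzyme (0.983). These points share 6 libraries, and the values are descriptive. Rab6a had 42.9, 55.1 and 52.2 FPKM in mutant and 43.8, 49.9 and 48.1 FPKM in wild-type replicates 1 to 3. Its libraries took the same order as those of Rgs1, with a smaller spread.

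Of the 9 genes 4 lie on chromosome 1, as does Ramp1 (mm10, the authors' coordinates), where 6.03% of all genes tested lie. Rgs2 (chr1:143999338-144004161, minus strand), Rgs1 (chr1:144242296-144249242, minus strand) and Rgs18 (chr1:144752683-144775435, minus strand) form a cluster of 0.776 Mb that starts 52.8 Mb beyond the start of Ramp1. Their paralogues Rgs13 (144138654 to 144177372) and Rgs21 (144516648 to 144567667 in GENCODE M21) lie between them and are listed at 0 FPKM in all 6 libraries. The stretch holds 1 further gene of the count table, a pseudogene with at most 3 reads in any library. The nearest tested genes on either side with known products, Uchl5, a proteasome-associated deubiquitinase, and Pla2g4a, a phospholipase, had log2 fold changes of -0.05 (SE 0.14) and -0.09 (SE 0.11). Rgs16 (chr1:153740349-153745468, plus strand) lies 62.6 Mb beyond Ramp1. The remaining genes lie on chromosome 4 (Rgs3), 7 (Rgs10), 5 (Rgs12), 13 (Rgs14) and 2 (Rgs19).

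The RefSeq promoter table (GRCm38.p6) held 10 start sites for 6 of the 9 genes, Rgs2, Rgs3, Rgs10, Rgs12, Rgs16 and Rgs19. The 250 bases before each start were searched on both strands for the cAMP response element TGACGTCA, for the shorter TGACG, which the whole element contains, and for the AP-1 motif TGANTCA. Because CGRP receptors raise cyclic AMP and because immediate early genes include AP-1 factors, the 2 promoters with a match are shown beside that of Rgs19, which has none. Capitals mark the matches, and CGTCA is TGACG read on the other strand.
Rgs2, chr1:144004150-144004399, minus strand: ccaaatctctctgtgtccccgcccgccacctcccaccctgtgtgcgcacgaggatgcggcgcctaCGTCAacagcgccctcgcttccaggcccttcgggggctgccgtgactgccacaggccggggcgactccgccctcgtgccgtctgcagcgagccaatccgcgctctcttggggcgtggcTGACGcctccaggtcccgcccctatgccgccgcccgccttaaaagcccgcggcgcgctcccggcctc
Rgs12, second start, chr5:34998828-34999077, plus strand: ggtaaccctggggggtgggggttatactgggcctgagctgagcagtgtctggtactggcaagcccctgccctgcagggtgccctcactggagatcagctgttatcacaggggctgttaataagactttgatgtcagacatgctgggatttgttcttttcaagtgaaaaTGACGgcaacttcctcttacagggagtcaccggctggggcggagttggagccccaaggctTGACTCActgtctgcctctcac
Rgs19, first start, chr2:181693978-181694227, minus strand: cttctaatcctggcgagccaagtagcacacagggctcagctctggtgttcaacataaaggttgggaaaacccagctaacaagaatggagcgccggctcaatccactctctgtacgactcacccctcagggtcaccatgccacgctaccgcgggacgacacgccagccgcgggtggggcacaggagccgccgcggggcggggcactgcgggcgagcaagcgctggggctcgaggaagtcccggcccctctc
The Rgs2 window holds TGACG starting 67 bases before the start site and its reverse complement 185 bases before it. That of Rgs12 holds TGACG at 82 bases and TGANTCA at 22 bases. None of the 10 windows holds TGACGTCA. Over all 32851 promoters of the table, 17.8% hold TGACG, 6.75% TGANTCA and 1.55% TGACGTCA. A match is only a run of letters, and no binding was measured here.

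Other RGS-named genes were rare in these cells. Of 15, 7 were listed at 0 FPKM in all libraries (Rgs5, Rgs7, Rgs13, Rgs17, Rgs20, Rgs21 and Rgs22), and 6 were tested, 0 of them passing. Rgs7bp, which encodes a membrane anchor for R7-class RGS proteins, was the highest, with 2.26 ± 0.514 FPKM in mutant and 1.97 ± 0.505 FPKM in wild-type HSCs. Rgs4 varied from library to library, with 0, 0.789 and 0.808 FPKM in mutant and 1.26, 2.73 and 0.466 FPKM in wild-type replicates 1 to 3. Its groups overlap, and its log2 fold change did not pass.

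Proteins that carry an RGS-like domain beside another main function had 0 of 8 tested members past the threshold, with a median log2 fold change of -0.07. Snx25, an endosomal sorting nexin, came closest: it had 4.18 ± 0.616 FPKM in mutant and 7.52 ± 0.251 FPKM in wild-type HSCs (log2 fold change -0.85, SE 0.16; edgeR adjusted p = 0.591). DESeq2 called it, at an adjusted p of 0.00185. Axin1, the scaffold of the beta-catenin destruction complex, had 35.6 ± 5.87 FPKM in mutant and 40.7 ± 1.66 FPKM in wild-type HSCs (log2 fold change -0.20, SE 0.12).

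Among the G alpha subunits of all classes, 0 of 11 tested genes passed, with 8 higher and 3 lower values and a median log2 fold change of 0.06. Gnai2, the main Gi alpha subunit of blood cells, had 320.2 ± 9.66 FPKM in mutant and 330.0 ± 13.4 FPKM in wild-type HSCs, and Gnai3 had 137 ± 5.63 FPKM in mutant and 131 ± 4.47 FPKM in wild-type HSCs. Gna15, a Gq-class subunit of blood cells, had 52.9 ± 2.63 FPKM in mutant and 46.6 ± 3.49 FPKM in wild-type HSCs (log2 fold change 0.18, SE 0.10). Gna12, a further G alpha subunit, had 22.1, 7.27 and 6.67 FPKM in mutant and 38.0, 34.8 and 23.5 FPKM in wild-type replicates 1 to 3. All 3 mutant libraries lay below the wild-type ones, by little between mutant replicate 1 and wild-type replicate 3, and the log2 fold change of -1.43 (SE 0.45; unadjusted p = 0.0129, edgeR adjusted p = 0.999) did not pass.

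The G beta and gamma subunits had 0 of 10 tested genes past the threshold (7 higher and 3 lower; median 0.02), with Gng11 at 79.95 ± 11.4 FPKM in mutant and 66.6 ± 3.24 FPKM in wild-type HSCs. Receptor kinases, arrestins and other G protein modulators had 0 of 11 (3 higher and 8 lower; median -0.04). Adrbk1, the receptor kinase GRK2, had 66.3 ± 18.7 FPKM in mutant and 85.6 ± 4.94 FPKM in wild-type HSCs (log2 fold change -0.37, SE 0.18). Receptors that couple to Gi or Gq had 0 of 18 (11 higher and 7 lower; median 0.11). Of those with at least 5 FPKM, Cysltr2, a receptor for cysteinyl leukotrienes, had the smallest unadjusted p (0.166; edgeR adjusted p = 0.999). It had 5.94, 8.57 and 5.59 FPKM in mutant and 0.832, 1.90 and 7.17 FPKM in wild-type replicates 1 to 3, with wild-type replicate 3 inside the mutant range (log2 fold change 1.03, SE 0.68). S1pr2, Gpr171 and S1pr1 followed, with log2 fold changes of -0.19 (SE 0.16), 0.13 (SE 0.13) and 0.33 (SE 0.34). The only unadjusted p under 0.05 in this list was that of the chemokine receptor gene Ccr1, at 0.00854 (edgeR adjusted p = 0.999). Ccr1 had 0.542, 2.09 and 0.840 FPKM in mutant and 0.348, 0.213 and 0.272 FPKM in wild-type replicates 1 to 3, a log2 fold change of 2.07 (SE 0.59), and its groups do not overlap. The median over all genes tested was 0.00030.

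**Figure D4:**
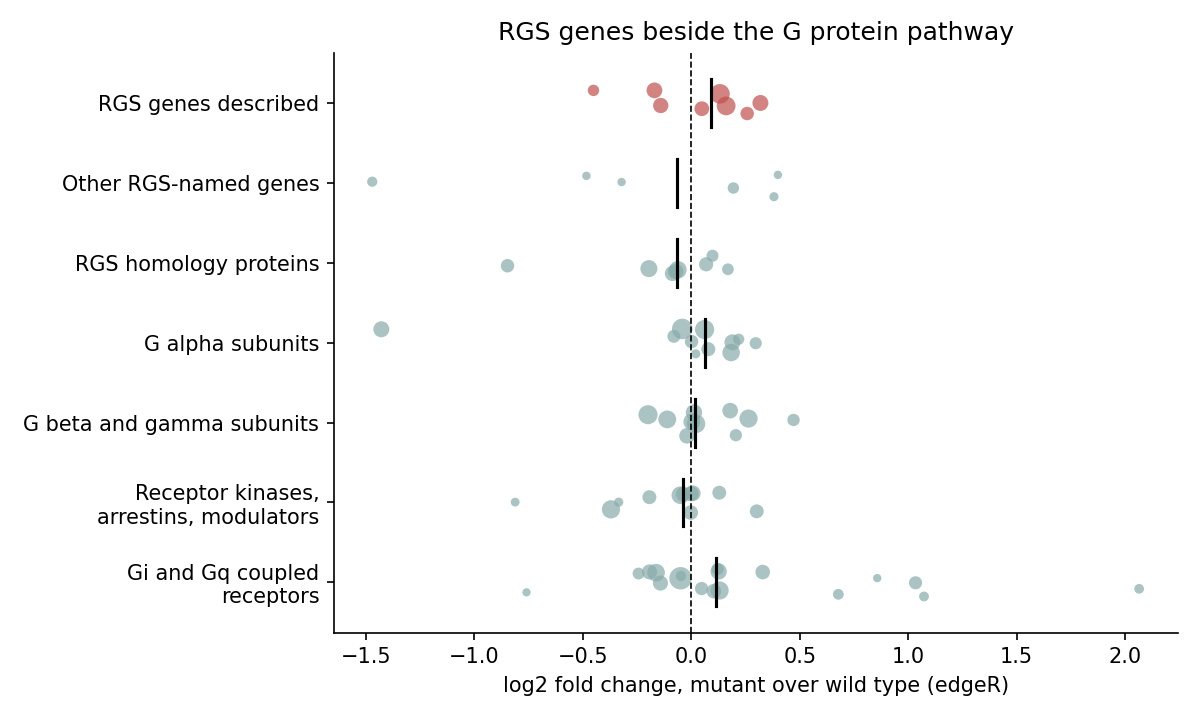
Log2 fold change of mutant over wild-type HSCs for each tested gene of the RGS genes and of 6 lists of the G protein pathway, one point per gene with its area growing with mean FPKM, and a bar at the list's median. The RGS genes lie between -0.45 and 0.32, and the medians of all 7 lie between -0.07 and 0.11.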

How the data were processed

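The authors deposited raw read counts per gene, FPKM, counts divided by size factors (a normalized signal, not used here), and log2 fold changes with p-values. Tools listed in the submitters' processing notes, without roles, are HTSeq 0.6.1, STAR, DESeq2 and CASAVA, and the build is mm10. No annotation release is named. Library names come from the file headers.

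Genotype was tested on the deposited counts over the whole table with edgeR 4.0.16 in R 4.3.3 (TMM, filterByExpr with a minimum count of 10, quasi-likelihood F test, Benjamini-Hochberg, two-sided, adjusted p under 0.05). The SE is the log2 fold change over the square root of F. Deposited FPKM gave levels. The gene test was checked on simulated data. DESeq2 1.42.0, limma 3.58.1 on log2 FPKM with a pseudocount of 1 or 0.1, other scalings and filters, each library left out, the replicate number and Y-linked reads were alternatives. Named were all members, Ramp1, and up to 4 genes per pathway list, of at least 5 FPKM, by smallest p; the remaining names were chosen after their values were seen. Members and lists were chosen with earlier results of these data known.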

Additional observations from a re-analysis of the deposited data

How the results depend on the processing

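All 8 tested RGS genes stayed without a call in each of the 16 alternatives, and all kept their sign except Rgs12, whose log2 fold change was -0.10 without wild-type replicate 2 and 0.15 without wild-type replicate 1, the lowest and highest with single libraries left out; the cause was not tested. The call of Ramp1 held in all 16. The count of all genes past the threshold was 3, and 44 with DESeq2; it ran from 2 to 6 when single libraries were left out, with 6 without mutant replicate 2. DESeq2 called 1 gene of the G protein lists, Snx25, where edgeR called 0. With the replicate number as a block, edgeR called 0 RGS genes and 2 genes in all, and gave Rgs1 a log2 fold change of 0.26 (SE 0.14; adjusted p = 0.997). The labels do not say whether equal replicate numbers mark pairs. Deviations from the genotype means correlated across genes at 0.14, 0.0018 and -0.09 for replicates 1, 2 and 3. Replicate 1 of each genotype correlated best with its own number, and replicates 2 and 3 did not. Deviations within a genotype depend on one another, so these values cannot settle whether the libraries are paired. Low counts limit Rgs16 and Rgs10.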
